A study of Mus musculus with 6 samples.

Results

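To ask how the transcripts of the retina's voltage-gated calcium channels stood after a period of elevated intraocular pressure (IOP), 10 genes were read from a table of gene counts that holds 31169 genes. They were taken by gene symbol. Of these, 6 encode pore subunits (*Cacna1a*, *Cacna1b*, *Cacna1c*, *Cacna1d*, *Cacna1f* and *Cacna1h*), 2 encode α2δ subunits (*Cacna2d1* and *Cacna2d4*), 1 encodes a β subunit (*Cacnb2*) and 1 encodes a calcium-binding partner of the photoreceptor channel (*Cabp4*). Poly(A) RNA was sequenced from whole retina of male C57BL/6 mice, a wild-type inbred strain. The mice had received intracameral saline (3 libraries) or 15 μm polystyrene microbeads (3 libraries) at 1 month of age, and the retina was taken 4 weeks later, at 2 months of age. Beads lodged in the iridocorneal angle block aqueous drainage and raise IOP, so the injection is a model of one glaucoma risk factor, and no naïve retina was analysed here. Whether each library came from a separate animal was not stated, so p-values measure only the spread between these libraries.

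A voltage-gated calcium channel opens when the membrane depolarizes and lets calcium into the cell. The pore subunit sets the type of current: L-type channels (the Cav1 family, here *Cacna1c*, *Cacna1d* and *Cacna1f*) inactivate slowly, P/Q- and N-type channels (*Cacna1a* and *Cacna1b*) drive transmitter release at conventional synapses, and T-type channels (*Cacna1h*) open at low voltage. The β and α2δ subunits bring the pore to the membrane and tune its gating. In rods, the channel at the ribbon synapse is built from *Cacna1f*, *Cacnb2* and *Cacna2d4* products, with *Cabp4* holding it open over a useful voltage range. Loss of *Cacna1f*, *Cacna2d4* or *Cabp4* causes forms of night blindness or cone-rod disease.

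None of the 9 channel genes that could be tested passed an adjusted p-value of 0.05 in either direction in edgeR's test. An unadjusted p under 0.05 was reached by 2, and the share of all tested genes that reached it was not computed. DESeq2 called 2 of the 9 genes higher (*Cacna1f* and *Cacnb2*), and it called 3582 of all 17707 tested genes in either direction. By limma-voom 0 of the 9 genes passed, and 2210 of all tested genes. The widest differences were those of 2 genes of the photoreceptor terminal, *Cacna1f* and *Cacnb2*, at 1.75-fold (95% interval 1.21 to 2.52) and 1.52-fold (1.11 to 2.08) the saline level, and of *Cacna1a*, at 1.54-fold (0.942 to 2.52). The adjusted p-values were 0.0544, 0.0769 and 0.211 (edgeR's quasi-likelihood test with Benjamini-Hochberg adjustment over all 17707 tested genes). Among those 17707 genes, 6.46% passed as higher and 6.31% as lower in microbead-injected retina. The 9 genes had 8 positive log2 fold changes and 1 negative, with a median of 0.26, against a median of −0.03 over all tested genes. *Cabp4* was practically uncounted and fell under the filter on low counts.

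The sequence before the start of *Cacna1f* and of *Cacnb2* is shown because these were the 2 genes of the 10 whose groups did not overlap. RefSeq's promoter set (GRCm38.p6) held 6 of the 10 genes, and *Cacna1a*, *Cacna1h*, *Cacna2d4* and *Cabp4* were not matched. Each run below is the 250 bases before an annotated start, 5′ to 3′ on the gene's strand, and no part is in capitals because neither motif searched was found in them. The gene counts do not separate the 2 starts of *Cacnb2*.
*Cacna1f*, chrX:7606853-7607102, plus strand: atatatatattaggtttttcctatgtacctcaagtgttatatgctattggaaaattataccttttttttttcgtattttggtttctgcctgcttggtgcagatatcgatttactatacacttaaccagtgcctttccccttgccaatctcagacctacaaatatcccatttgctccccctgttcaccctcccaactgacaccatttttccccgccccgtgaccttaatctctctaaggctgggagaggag
*Cacnb2*, upstream start, chr2:14604056-14604305, plus strand: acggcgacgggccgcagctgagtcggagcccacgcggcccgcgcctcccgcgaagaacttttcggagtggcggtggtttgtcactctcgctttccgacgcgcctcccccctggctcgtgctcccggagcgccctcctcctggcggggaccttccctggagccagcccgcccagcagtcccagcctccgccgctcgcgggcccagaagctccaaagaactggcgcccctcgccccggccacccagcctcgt
*Cacnb2*, internal start, chr2:14823842-14824091, plus strand: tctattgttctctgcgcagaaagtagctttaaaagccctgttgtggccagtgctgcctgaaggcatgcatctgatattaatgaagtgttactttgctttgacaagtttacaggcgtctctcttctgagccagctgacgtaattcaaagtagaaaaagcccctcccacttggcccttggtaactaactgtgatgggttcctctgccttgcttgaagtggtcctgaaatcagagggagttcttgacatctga
The motifs, searched on both strands, were TAATCC, the core bound by the photoreceptor factors CRX and OTX2, and TGCTGA, part of the element bound by the rod factor NRL. In all 32851 promoters of the set, 6.25% held the first and 16.1% the second. Within the channel genes, TGCTGA occurred before 2 of the 3 starts of *Cacna1c* and nowhere else, and TAATCC did not occur. The GC content was 41.6% before *Cacna1f*, 73.2% before the upstream *Cacnb2* start and 46.0% before the internal one.

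The libraries themselves differed in ways that move with the injection. Total counts were 36085737 to 46481382 in saline and 13574949 to 19834366 in microbead libraries, and the mitochondrial share was 3.19 to 3.57% against 8.90 to 10.6%. The names of the sequencing libraries in the sample descriptions form 2 series, 1 for each injection, so library series and injection cannot be told apart. The channel genes were nevertheless counted deeply: the lowest count of any tested gene of the 10 in any library was 218 (*Cacna1c*). Levels are given as counts per 1000000 (CPM) of the TMM-scaled library size. In bulk tissue, fewer cells of a type and less RNA per cell cannot be told apart.

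Levels of different genes can be compared only per length, so CPM was divided by the longest annotated transcript in kb. On this scale *Cacna2d4* was highest, at a mean of 82.2 CPM per kb in saline-injected and 98.3 in microbead-injected retina. *Cacna1f* (40.4 and 70.5) and *Cacnb2* (32.8 and 49.7) followed, and their saline ranges, 31.7 to 48.5 and 24.6 to 39.3 CPM per kb, overlapped. *Cacna1h* stood next at 19.4 and 21.0 CPM per kb, below the whole saline range of *Cacnb2*. A lower tier held *Cacna2d1* (8.04 and 7.26), *Cacna1a* (5.03 and 7.76), *Cacna1d* (4.23 and 5.03) and *Cacna1b* (3.22 and 3.52), whose saline ranges overlapped from each gene to the next. *Cacna1c*, the cardiac and smooth muscle L-type pore that neurons also use, was last at 0.993 and 1.19 CPM per kb. On this scale the 3 highest genes were thus those of the photoreceptor terminal, in both groups. The place of *Cacnb2* above *Cacna1h* depends on the length used. The union of exons is 13228 bases for *Cacnb2*, against 5030 for its longest transcript, and 9763 against 8230 for *Cacna1h*. A ranking by the union was not made.

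**Figure D1:**
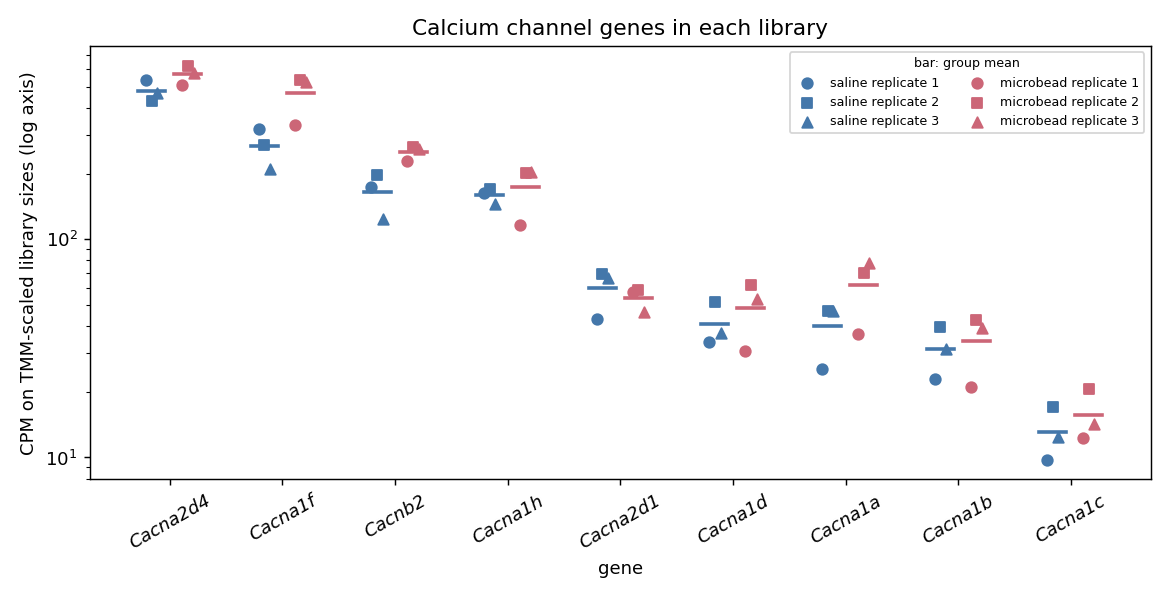
CPM on TMM-scaled library sizes (log axis) of the 9 tested channel genes, ordered by saline mean. Each point is 1 of 6 libraries and each bar a group mean, and only *Cacna1f* and *Cacnb2* have all 3 microbead points above all 3 saline points.

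*Cacna1f* (ENSMUSG00000031142.17) lies on the X chromosome at 7607083 to 7635196 on the plus strand (GRCm38, GENCODE vM21), where 11 transcripts are annotated, 5 of them coding. Its level was 321, 271 and 210 CPM in saline replicates 1, 2 and 3 and 335, 539 and 526 CPM in microbead replicates 1, 2 and 3. The groups did not overlap, but microbead replicate 1 lay just above saline replicate 1, and the separation came from the other microbead libraries. The mean was 267 ± 55.6 CPM (SD, n = 3) in saline and 467 ± 114 CPM (SD, n = 3) in microbead retina. The log2 fold change was 0.80 with a standard error of 0.24 (95% interval 0.27 to 1.34), an unadjusted p of 0.0074 and an adjusted p of 0.0544 in edgeR's quasi-likelihood test.

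*Cacna1f* stood close to the threshold, and the call depended on the fit. With the same 6 libraries it passed in 6 of 11 alternative settings, with adjusted p-values of 0.0079 (DESeq2) to 0.108 (the replicate number as a block) and log2 fold changes of 0.76 to 0.98. With 1 library left out it passed in 2 of 6 fits, without saline replicate 1 (adjusted p = 0.0379, edgeR) and without microbead replicate 1 (adjusted p = 0.0479, edgeR), and the highest adjusted p was 0.180, without microbead replicate 3. The log2 fold change was positive in each of these fits, from 0.65 to 0.99 when 1 library was left out. A fit without both saline replicate 1 and microbead replicate 1, chosen after seeing the data, gave 1.14 (adjusted p = 0.0175, edgeR).

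*Cacnb2* (ENSMUSG00000057914.15, chromosome 2, 14603088 to 14987908, plus strand), the β subunit of photoreceptor terminals, had 173, 198 and 124 CPM in the saline libraries and 227, 264 and 260 CPM in the microbead libraries. The groups did not overlap, and the microbead libraries varied less (250 ± 20.1 CPM, SD, n = 3) than the saline libraries (165 ± 37.6 CPM, SD, n = 3), of which replicate 3 was lowest, as it was for *Cacna1f*. The log2 fold change was 0.60 with a standard error of 0.20 (95% interval 0.15 to 1.05) and an adjusted p of 0.0769 in edgeR's test. It passed in 2 of 11 alternative settings, DESeq2 (adjusted p = 0.0271) and the GC and length offset in edgeR (adjusted p = 0.0270), and in 0 of 6 fits with a library left out. In the annotation, 4.27% of its 100-base stretches also occur, on either strand, in transcripts of another gene. Of its exon bases, 968 lie opposite other genes, and whether the shared stretches lie in that overlap was not tested. *Cacna1f* had no shared stretch and no overlap.

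Having 2 of 9 genes with no overlap and a higher microbead level is to be read against a background of 18.8% of all tested genes, and 0 of 9 with a lower level against 18.9%.

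*Cacna2d4*, the α2δ subunit of rods and cones, was the most abundant of the set and differed less: 534, 429 and 467 CPM in saline and 508, 624 and 579 CPM in microbead retina. The groups overlapped, because saline replicate 1 exceeded microbead replicate 1. The log2 fold change of 0.26 with a standard error of 0.17 had a 95% interval of −0.13 to 0.65 (adjusted p = 0.343, edgeR), and no alternative passed.

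*Cabp4* (chromosome 19, 4135423 to 4144033, minus strand) had 0 counts in all 3 saline libraries and 1, 0 and 0 counts in microbead replicates 1, 2 and 3. The single count in microbead replicate 1 corresponds to 0.0515 CPM. In the libraries with no count, as many as 3 could have been missed, a limit of 0.0622 to 0.0856 CPM for saline and 0.195 to 0.217 CPM for microbead replicates 2 and 3. The other genes of the same rod complex stood between 124 and 624 CPM in these libraries. No fold change is given, and whether the value reflects the tissue or the way reads were assigned to this locus was not tested. In the GENCODE vM21 annotation, 131 of its exon bases lie opposite *Gpr152*.

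*Cacna1a*, the P/Q-type pore of conventional synapses, had 25.5, 47.0 and 47.0 CPM in saline and 36.6, 70.3 and 77.5 CPM in microbead retina. Replicate 1 was the low library in both groups, and microbead replicate 1 fell below 2 of the saline libraries, so the groups overlapped. The means were 39.8 ± 12.4 and 61.5 ± 21.8 CPM (SD, n = 3 each). The log2 fold change of 0.62 with a standard error of 0.32 (95% interval −0.09 to 1.34) did not pass (adjusted p = 0.211, edgeR). With 1 library left out it passed in 0 of 6 fits, with log2 fold changes of 0.38 (without saline replicate 1) and 0.41 (without microbead replicate 3) to 0.89 and adjusted p-values of 0.0947 to 0.527 (edgeR). With all libraries it passed in 2 of 11 alternative settings, the GC and length offset alone (0.85, adjusted p = 0.0326, edgeR) and with the replicate block (0.86, adjusted p = 0.0447, edgeR). It also passed without both replicates 1, the fit chosen after seeing the data (0.65, adjusted p = 0.0446, edgeR).

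The N-type pore gene *Cacna1b* had 23.0, 39.8 and 31.3 CPM in saline and 21.0, 42.7 and 39.0 CPM in microbead retina, a log2 fold change of 0.12 (standard error 0.29, adjusted p = 0.805, edgeR). *Cacna1d*, the L-type pore of inner retinal neurons, had 33.9, 51.6 and 37.1 against 30.7, 61.7 and 53.3 CPM, a log2 fold change of 0.25 (standard error 0.27, adjusted p = 0.573, edgeR). Both were lowest in replicate 1 of each group, with microbead replicate 1 below every saline library, and so gave overlapping groups. *Cacna1c* had 9.77, 17.0 and 12.4 against 12.2, 20.7 and 14.2 CPM, a log2 fold change of 0.26 (standard error 0.28, adjusted p = 0.563, edgeR), again lowest in replicate 1 of each group. Single libraries moved these values: with 1 left out, the log2 fold change ran from 0.06 (without microbead replicate 2) to 0.49 (without microbead replicate 1) for *Cacna1d* and from 0.03 (without microbead replicate 2) to 0.49 (without saline replicate 2) for *Cacna1c*.

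The T-type pore gene *Cacna1h* had 163, 170 and 145 CPM in saline and 116, 201 and 203 CPM in microbead retina, a log2 fold change of 0.12 (standard error 0.23, 95% interval −0.39 to 0.63, adjusted p = 0.757, edgeR). Its microbead libraries lay on both sides of the saline range. *Cacna2d1*, the widely used neuronal α2δ subunit bound by gabapentin, was the gene with a negative value. It had 43.3, 69.6 and 66.4 CPM in saline and 57.0, 58.7 and 46.2 CPM in microbead retina, a log2 fold change of −0.15 (standard error 0.21, 95% interval −0.63 to 0.33, adjusted p = 0.678, edgeR), with all microbead libraries inside the saline range. The sign of *Cacna1b*, *Cacna1h* and *Cacna2d1* turned in at least 1 alternative fit.

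**Figure D2:**
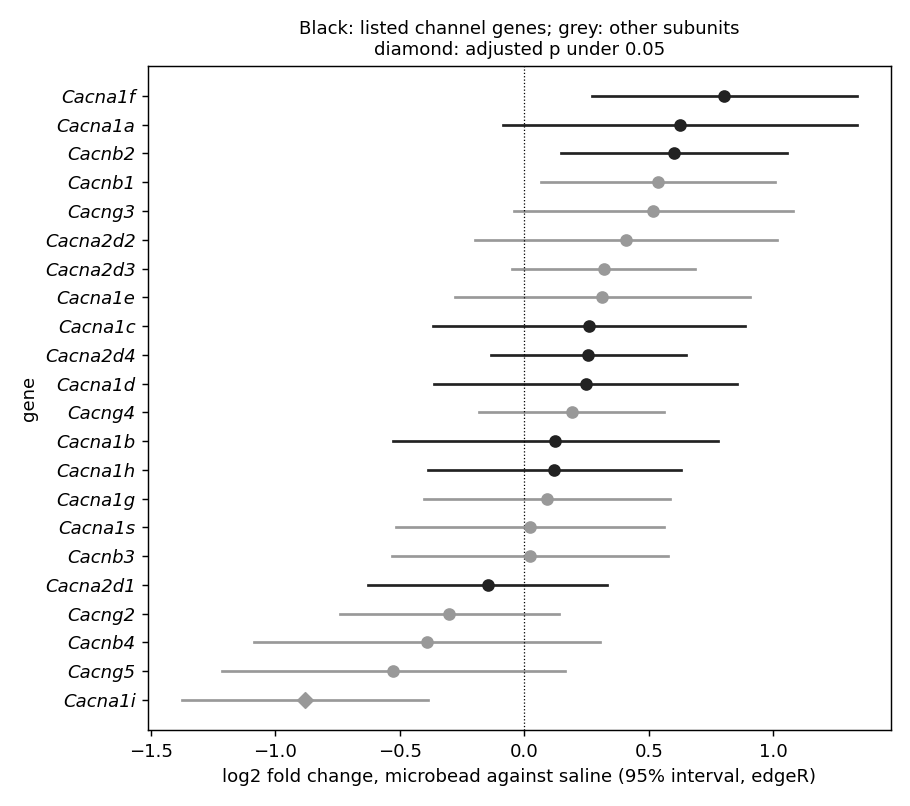
Log2 fold change of microbead against saline with its 95% interval from edgeR (3 libraries a group) for the 9 tested channel genes (black) and 13 other calcium channel subunits (grey). The diamond, *Cacna1i* at −0.88, is the 1 gene with an adjusted p-value under 0.05, and the intervals of *Cacna1f*, *Cacnb2* and *Cacnb1* lie above 0.

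The remaining subunit genes give the rest of the channel family. Of 17 listed, 14 were in the table and 13 were tested; *Cacng1*, a skeletal muscle subunit, had 0 to 5 counts a library. In edgeR's test, as in DESeq2 and limma-voom, 0 of 13 rose and 1 fell, and the median log2 fold change was 0.09. At an unadjusted p under 0.05, 1 was higher and 1 lower, a level for which no share of all tested genes was computed. By edgeR, 6.46% of all tested genes passed as higher and 6.31% as lower. The gene that fell was *Cacna1i*, a T-type pore of thalamic and other neurons, with 47.4, 67.2 and 65.1 CPM in saline and 25.1, 39.6 and 33.1 CPM in microbead retina. The groups did not overlap, and the microbead level was 0.543 of the saline level (95% interval 0.386 to 0.766, log2 fold change −0.88, standard error 0.22, adjusted p = 0.0340, edgeR). This call held in 10 of 11 alternative settings with all libraries but in 1 of 6 with a library left out, that without saline replicate 1, where adjusted p-values ran from 0.0179 to 0.122. The other T-type pores did not pass: *Cacna1g* had a log2 fold change of 0.09 (standard error 0.22, adjusted p = 0.813, edgeR), near that of *Cacna1h*.

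Among the accessory genes, *Cacnb1* (0.54, adjusted p = 0.116), *Cacna2d3* (0.32, adjusted p = 0.218) and *Cacng4* (0.19, adjusted p = 0.468) were higher in all microbead libraries than in all saline libraries without passing edgeR's test. Of all tested genes, 18.8% were separated in this direction. The log2 fold change was 0.52 for *Cacng3*, 0.41 for *Cacna2d2*, 0.31 for *Cacna1e*, 0.02 for *Cacnb3* and *Cacna1s*, −0.30 for *Cacng2*, −0.39 for *Cacnb4* and −0.52 for *Cacng5*, with none passing. *Cacng2* to *Cacng5* encode TARPs or related proteins, which act mainly on AMPA receptors.

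The makeup of each subunit pool was computed within a library, from CPM per kb, so that library size cancels. *Cacna1f* made up 50.8, 40.1 and 36.9% of the pore-subunit level of the 10 pore genes in the saline libraries and 56.2, 55.0 and 53.9% in the microbead libraries. *Cacna1h* held 20.8, 20.2 and 20.5% against 15.7, 16.5 and 16.7%, and *Cacna1i* 5.08, 6.73 and 7.74% against 2.85, 2.74 and 2.29%. *Cacna1s*, the skeletal muscle pore, held 2.65, 2.94 and 3.53% against 2.26, 2.05 and 2.46%. For these 4 of the 10 pore genes every microbead library lay on one side of every saline library. No background was computed for shares. By CPM, 18.8% of all tested genes had no overlap with a higher microbead level and 18.9% with a lower level. Shares of a fixed total are not independent, since a larger share of *Cacna1f* lowers the others, and the CPM of *Cacna1h* and *Cacna1s* overlapped between the groups.

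The 4 Cav1 genes together (*Cacna1c*, *Cacna1d*, *Cacna1f* and *Cacna1s*) made up 57.9, 49.6 and 46.0% of the pore level in saline and 63.0, 62.4 and 60.8% in microbead retina. The difference of 10.9 percentage points between 51.2 ± 6.12% and 62.1 ± 1.11% (SD, n = 3 each) had p = 0.1 in a two-sided exact permutation test, the smallest that 3 against 3 libraries allow. Leaving out 1 library gave differences of 8.34 to 14.3 percentage points. Within the Cav1 genes, the share of *Cacna1f* was 87.7, 81.0 and 80.2% in saline and 89.2, 88.1 and 88.6% in microbead retina, a difference of 5.65 percentage points (exact permutation p = 0.1, n = 3 each). Without the division by length saline replicate 1 overlapped the microbead libraries, and p was 0.2 in the same exact test.

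In the accessory pools, *Cacna2d4* held 66.6 ± 4.32% of the α2δ level in saline and 66.5 ± 1.37% in microbead retina (SD, n = 3 each), a difference of −0.163 percentage points (exact permutation p = 0.9). *Cacnb2* held 58.8, 51.8 and 38.1% of the β level in saline and 57.8, 63.3 and 54.4% in microbead retina, a difference of 8.91 percentage points with overlapping groups (exact permutation p = 0.3, n = 3 each). That difference was 3.18 percentage points without saline replicate 3, the low library, and 13.5 percentage points, with no overlap, without saline replicate 1 (exact permutation p = 0.1, the smallest that 2 against 3 libraries allow). The most abundant other β gene, *Cacnb3*, held 35.6 ± 8.21% and 28.0 ± 4.98% (SD, n = 3 each). With counts per kb of the union of exons, *Cacnb2* held 34.5 ± 9.38% in saline and 42.8 ± 4.26% in microbead retina (SD, n = 3 each). Its share of the β level thus depended on the length used, while the difference was 8.23 percentage points (exact permutation p = 0.3).

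**Figure D3:**
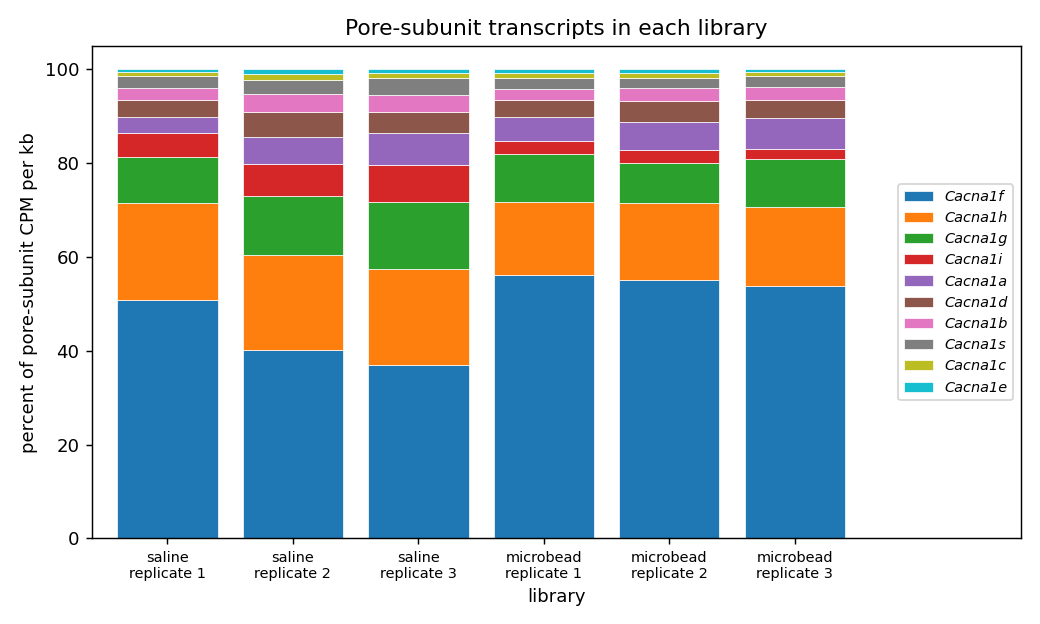
Share of each of the 10 pore genes in the summed pore-subunit CPM per kb, 1 stacked bar per library. *Cacna1f* takes 36.9 to 50.8% in saline and 53.9 to 56.2% in microbead libraries, while *Cacna1h* takes 20.2 to 20.8% and 15.7 to 16.7%.

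Cell type markers were set beside these values. Counts of markers passing edgeR's test are to be read against 6.46% higher and 6.31% lower over all tested genes. The 14 rod markers were all counted in every library and summed to 75110 to 99451 CPM in saline and 67076 to 82401 CPM in microbead libraries, with 1 marker passing as higher and 1 as lower. The log2 ratio of *Cacna1f* to the rod sum was −7.92, −8.11 and −8.89 in saline and −7.91, −6.96 and −7.29 in microbead retina. The ratio was higher by 0.92 in microbead retina (exact permutation p = 0.1, n = 3 each), but saline replicate 1 and microbead replicate 1 nearly coincided, and with the mean log2 level of the rod markers the difference was 0.95 and the exact permutation p was 0.2. The same ratio for *Cacna2d4* differed by 0.39 (exact permutation p = 0.2, n = 3 each), and by 0.23 without microbead replicate 2 and 0.25 without saline replicate 3. The 8 bipolar markers summed to 1315 to 1678 CPM in saline and 1259 to 1635 CPM in microbead libraries, and 0 of 8 passed.

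Markers of retinal ganglion cells (RGCs), which use several of the pore genes, separated a single library. Their sum was 371 CPM in saline replicate 1 against 1072 and 1376 CPM in the other saline libraries and 909 to 1244 CPM in the microbead libraries, with 0 of 11 markers passing and none at 0. *Cacna1a*, *Cacna1b*, *Cacna1c*, *Cacna1d* and *Cacna2d1* were each lowest among the saline libraries in that library, and the part of RGC content in their values was not tested. Horizontal cell markers summed to 97.6 to 149 CPM in saline and 54.0 to 93.0 CPM in microbead libraries, with 1 of 4 passing as lower. Endothelial markers summed to 463 to 666 against 287 to 436 CPM, with 4 of 9 passing as lower. The Müller glia sums were 4033 to 8014 and 3876 to 4494 CPM, with 3 of 8 passing as lower. Among mural markers, which summed to 144 to 226 and 111 to 178 CPM, 2 of 9 passed as lower. Retinal pigment epithelium markers summed to 11.6, 55.2 and 241 CPM in saline replicates 1, 2 and 3 and to 101 to 123 CPM in microbead libraries, with the highest value in saline replicate 3, and *Cacna1f* and *Cacnb2* were lowest in that library. Cone (1139 to 1397 and 1267 to 1558 CPM), amacrine (591 to 1073 and 669 to 706 CPM) and microglia sums (58.1 to 209 and 49.4 to 113 CPM) overlapped between the groups, with 1 of 9 cone markers passing as higher. Among all tested genes, 6.46% passed as higher and 6.31% as lower (edgeR). The part of these cell types in the channel values was not tested.

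Most channel transcripts are long, and the median log2 fold change went down with transcript length. The median log2 fold change of tested genes was 0.15 for transcripts under 2 kb (4838 genes), 0.02 for 2 to 4 kb (6880 genes), −0.15 for 4 to 6 kb (3705 genes), −0.23 for 6 to 8 kb (1302 genes) and −0.24 over 8 kb (918 genes). Each of the 9 channel genes, including *Cacna2d1*, stood at or above the median of its band. *Cacna1f* (6622 bases) was reached or exceeded by 4.69% of genes of 6 to 8 kb, *Cacna1a* (7926 bases) by 7.60% of the same band, and *Cacnb2* (5030 bases) by 11.1% of genes of 4 to 6 kb.

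Microbead replicate 1 showed the widest trend: from the mean of the 6 libraries it deviated by a median of 0.24 (log2) in genes under 2 kb and −0.39 in genes over 8 kb. Microbead replicate 2 went the other way, from −0.02 to 0.16, as did saline replicate 2, from −0.09 to 0.25. *Cacna1a*, *Cacna1b*, *Cacna1c*, *Cacna1d*, *Cacna1f*, *Cacna1h*, *Cacna2d4* and *Cacnb2* were each lowest among microbead libraries in replicate 1. The part of transcript length in their values was tested only through the offset for GC content and length, under which *Cacna1f*, *Cacnb2* and *Cacna1a* had log2 fold changes of 0.94, 0.73 and 0.85 and passed. Over all tested genes, 3040 passed under this offset, against 2261 in the reported fit.

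**Figure D4:**
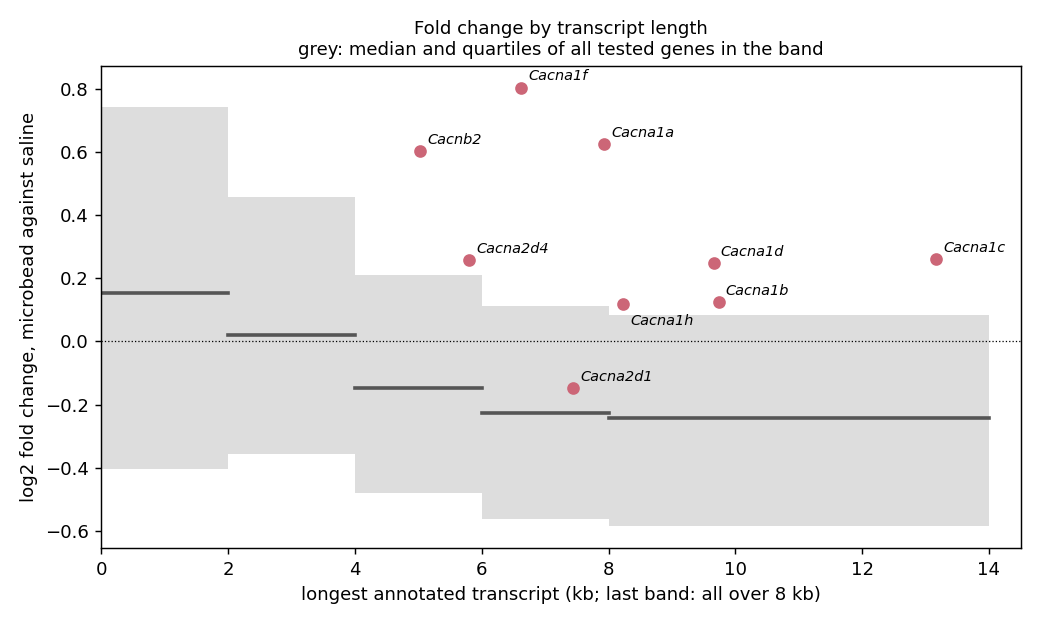
Log2 fold change of microbead against saline for the 9 tested channel genes (points) by the length of the longest annotated transcript in kb, over the median (line) and quartiles (shading) of all tested genes in 5 length bands. The band medians go from 0.15 under 2 kb to −0.24 over 8 kb, and every point but *Cacna2d1* lies above the upper quartile of its band.

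Across the 6 libraries, log2 CPM of *Cacna1f* went with that of *Cacnb2* (Pearson r = 0.905) and *Cacna2d4* (r = 0.883), and that of *Cacna1b* with *Cacna1d* (r = 0.959). These values describe 6 points that share injection group, depth and the length trend. Among 11833 other genes of at least 5 CPM, the patterns most like *Cacna1f* were those of *Pitpnm3* (r = 0.998), *Paxip1* (r = 0.996) and *Mamld1* (r = 0.996). *Pitpnm3*, a phosphatidylinositol transfer protein mutated in a cone dystrophy, had a log2 fold change of 0.89 (adjusted p = 0.0469, edgeR), and those of *Paxip1* and *Mamld1* were 0.61 (adjusted p = 0.0748, edgeR) and 0.55 (adjusted p = 0.0878, edgeR). These genes were picked for their likeness to *Cacna1f*, so their differences between the groups are no separate evidence.

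Genes that act with the channel were read from lists chosen by function. Of the proteins that bind or regulate the channel (calcium-binding proteins, Stac and RGK proteins, and a calcium-dependent kinase family), 16 were tested and 0 passed in either direction by edgeR, DESeq2 or limma-voom, with a median log2 fold change of 0.05. At an unadjusted p under 0.05, edgeR had 0 higher and 2 lower, and the share of all tested genes at that level was not computed. The widest log2 fold changes were those of *Stac3* (0.93, adjusted p = 0.264) and *Rrad* (−0.65, adjusted p = 0.481), both by edgeR and both counted at a few CPM or less.

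At the presynaptic active zone, where the channel is anchored beside the release machinery, 2 of 20 tested genes rose and 2 fell in edgeR's test, with a median of 0.11. Over all tested genes, 6.46% passed as higher and 6.31% as lower. *Rimbp2*, which links the channel to RIM scaffolds, rose from 25.4, 38.7 and 32.1 CPM in saline to 65.3, 75.0 and 74.3 CPM in microbead retina, a 2.23-fold difference (95% interval 1.65 to 3.02, adjusted p = 0.0141). Its lowest microbead library was well above its highest saline library, and it passed in 11 of 11 alternative settings and in 5 of 6 fits with a library left out (adjusted p = 0.0733 without microbead replicate 3). The vesicle SNARE gene *Vamp2* rose from 1046 ± 102 to 1797 ± 138 CPM (SD, n = 3 each, log2 fold change 0.78, adjusted p = 0.0247, edgeR).

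The calcium sensor of release, *Syt1*, fell from 1308 ± 303 to 792 ± 39.0 CPM (SD, n = 3 each, log2 fold change −0.72, adjusted p = 0.0487, edgeR). The active zone scaffold *Erc2* fell from 39.3 ± 3.49 to 24.8 ± 3.22 CPM (SD, n = 3 each, log2 fold change −0.67, adjusted p = 0.0403, edgeR). With 1 library left out, *Vamp2* passed in 2 of 6 fits (without saline replicate 1 or 3), and *Syt1* and *Erc2* in 1 of 6 each (without saline replicate 1). With all libraries, *Vamp2* passed in 10, *Erc2* in 9 and *Syt1* in 5 of 11 alternative settings, *Syt1* with adjusted p-values up to 0.0713 (edgeR with the replicate block). *Lrit3*, a photoreceptor adhesion protein, had a log2 fold change of −0.74 that did not pass (adjusted p = 0.303, edgeR) and varied within the microbead libraries, at 10.2, 50.3 and 21.8 CPM.

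Of the genes for calcium release from stores, store-operated entry and calcium-activated channels, 18 were tested, 1 rose and 1 fell, with a median of −0.14. The shares over all tested genes were 6.46% higher and 6.31% lower (edgeR). The ryanodine receptor gene *Ryr1*, a release channel of the endoplasmic reticulum, rose from 1.75, 2.36 and 0.799 CPM to 3.91, 6.64 and 6.82 CPM (3.50-fold, 95% interval 1.75 to 7.02, adjusted p = 0.0325, edgeR), and passed in 2 of 6 fits with a library left out (without saline replicate 1 or 3). The related *Ryr3* had 16.9, 21.5 and 15.3 against 21.8, 41.2 and 27.8 CPM and did not pass (log2 fold change 0.76, adjusted p = 0.0798, edgeR). The IP3 receptor gene *Itpr2* fell from 17.5 ± 1.12 to 10.8 ± 1.11 CPM (SD, n = 3 each, log2 fold change −0.70, adjusted p = 0.0482, edgeR), a call that held in 3 of 11 alternative settings and in 0 of 6 fits with a library left out.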

How the data were processed

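Whole-retina mRNA libraries from a stranded poly(A) kit were read as 100-bp pairs. Per the labels and the study's methods, the authors aligned reads with STAR 2.5.3a to GRCm38.p5, counted them on GENCODE vM12 genes with featureCounts 1.15.2 and deposited raw counts per gene and library; the strand and multimapping settings were not given in the sources used here. The authors' DESeq2 1.14 columns in the same table (mean, fold changes, p-values, calls) were not used.

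The deposited counts were filtered by filterByExpr at a count of 10 and a total of 15, scaled by TMM and compared between 3 saline and 3 microbead libraries, as labelled, with edgeR 4.0.16 (quasi-likelihood test, two-sided, Benjamini-Hochberg over 17707 genes, threshold 0.05) in R 4.3.3. The prior count for log2 CPM was 2. Shares of a subunit pool and ratios to marker sums were compared with two-sided exact permutation tests. Gene lengths and positions came from GENCODE vM21, which covers 99.6% of tested genes. The filter and edgeR's test were also run on simulated counts.

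The 10 genes and all lists were chosen with earlier results of these data known. Named were all 10 genes, the other channel subunits, the 3 widest and all passing genes of the other lists, and the 3 genes most like *Cacna1f*, except 1 item that is not reported here. Alternatives changed the scaling (RLE, upper quartile, or totals without mitochondrial genes or without the top 100 genes), the filter (none, or a minimum of 10 counts per library), the tool (DESeq2 1.42.0 or limma-voom of limma 3.58.1), the model (a replicate block, a GC and length offset from splines with 5 degrees of freedom, or both), the threshold (0.01) and the libraries (each left out in turn). Totals of 13574949 to 46481382 counts put 3 counts at 0.0622 to 0.217 CPM (counting error only). No library was a copy of another: replicates differed at a chi-square per degree of freedom of 22.0 or more.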

Additional observations from a re-analysis of the deposited data

How the results depend on the processing

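Of the 10 channel genes, 0 were lower past the threshold under any alternative. The number higher, 0 in the reported fit, was 1 with RLE scaling, upper-quartile scaling, no filter, a minimum of 10 counts per library, or the GC and length offset with the replicate block, 2 with DESeq2, 3 with the GC and length offset, 0 to 1 with a library left out, and 2 without both replicates 1, a fit added after seeing the data. With the replicate block alone it stayed at 0. All genes past the threshold, in either direction, numbered 2261 of 17707 tested. They numbered 2227 with RLE and 2208 with upper-quartile scaling, 3582 with DESeq2, 3040 with the GC and length offset, 905 with the block and 982 with the block and offset. With no filter they numbered 3720 of 31169 tested, and with a minimum of 10 counts per library 2210 of 14710. They numbered 87 at an adjusted p under 0.01, 46 (without microbead replicate 3) to 2621 (without saline replicate 1) with a library left out, and 2652 without both replicates 1. The share of *Cacna2d4* in the α2δ level differed by 0.339 percentage points without division by length and by −2.07 to 2.18 with a library left out, turning sign. With a library left out, the log2 fold change of *Cacna1b* ran from −0.060 to 0.38, with −0.045 without microbead replicate 2, and that of *Cacna1h* from −0.015 to 0.34, and without both replicates 1 it was 0.35. That of *Cacna2d1* was 0.062 with the offset and 0.075 with offset and block. The causes of these shifts were not tested. Same-numbered libraries had deviations correlated at −0.035, 0.136 and 0.010, so the numbers were not taken as pairs. With no filter the median log2 fold change of all genes was −0.23. The ratio of *Cabp4* to the rod markers was not run, since it had 0 counts in 5 of 6 libraries. Of the 10 genes, *Cabp4* alone fell under the filter on low counts.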
